A study of Homo sapiens with 22 samples.

Results

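Trefoil factors are small secreted peptides that epithelia release together with mucins and that protect and help repair mucosal surfaces. TFF1, also called pS2, is a classic estrogen-induced gene of breast cancer cells, TFF2 (spasmolytic polypeptide) is best known from the stomach, and TFF3 (intestinal trefoil factor) from goblet cells. Estrogen receptor alpha (ESR1) is a nuclear receptor that binds DNA when estradiol (E2) occupies its ligand-binding domain. The D538G substitution lies in that domain and is known to let the receptor act without hormone.

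The values described here are ESR1 binding sites in a window of 140000 bp on chromosome 21 (hg19), drawn around TFF3, TFF2 and TFF1, which lie in that order of rising coordinates. All chromatin immunoprecipitation (ChIP-seq) peaks that overlapped the window were taken, 75 of 356467 in 20 peak lists. Peaks of all lists were joined wherever they shared 1 bp or more, which gave 24 regions in the window of 93612 in the genome. They are numbered 1 to 24 from the lowest coordinate and spanned chr21:43718416-43836010. On the gene table at hand, of assembly GRCh38.p14, the protein-coding neighbours are ABCG1, a cholesterol transporter, before TFF3, and TMPRSS3, a membrane-anchored serine protease, followed by UBASH3A, a regulator of T cells, after TFF1. That table is not of the build of the lists, so no region was assigned to a gene, an exon or a promoter.

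The lists came from Ishikawa cells, an endometrial adenocarcinoma line, in clones whose ESR1 carried a FLAG tag and was either wild type (2 clones) or D538G (3 clones), with 2 replicates of each clone and treatment. All cells were kept at least 5 days in hormone-deprived medium and then received 10 nM E2 or the solvent DMSO (0.1%) for 1 h, and the antibody was against FLAG, so only tagged receptor was measured. The groups were wild type with DMSO (4 lists), wild type with E2 (4), D538G with DMSO (6) and D538G with E2 (6). Libraries of 1 clone share that clone, and nothing in the labels says whether its replicates were separate cultures, so p-values measure the spread between these libraries, which may be partly technical.

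The lists differed widely in length, with 45 to 29118 peaks in wild type with DMSO, 5757 to 35344 in wild type with E2, 1619 to 54903 in D538G with DMSO and 1977 to 49223 in D538G with E2. Read depth is not known, so a missing peak can mean an unbound site or a shallow or weakly enriched library. A peak list also gives no count behind a peak and no limit for a site without one. The authors' peak names in the list labelled D538G clone 2 E2 replicate 1 hold the word Ctl, as do those of its DMSO partner, and this was the only E2 list of which that was true. For some of the tests and ranges that include that list the value without it is also given, and the others are given with it only. By presence that list held regions 12, 17 and 21 and no other.

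Peaks in at least 10 of the 20 lists were found at 3 of the 24 window regions (12.5%, against 6.62% of all regions in the genome). Region 12 (chr21:43757963-43759120) had a peak in 12 lists, and region 17 (chr21:43796070-43797138) and region 21 (chr21:43808976-43809991) in 14 each. Their median summits, the highest points of the peaks, lay 38276 bp apart (regions 12 and 17) and 12814 bp apart (regions 17 and 21). Another 5 regions had a peak in 2 to 9 lists, and 16 (66.7%, against 43.8% in the genome) had a peak in 1 list. Each of those 16 was in 1 of the 3 longest lists, all of D538G clones: 8 in clone 1 DMSO replicate 2, 4 in clone 2 DMSO replicate 2 and 4 in clone 3 E2 replicate 2. In the genome divided into stretches of 140000 bp, 13431 held a region. Their median was 3 regions, 6.79% held as many as the trefoil window, and 4.68% held at least 3 regions with a peak in at least 10 lists.

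**Figure D1:**
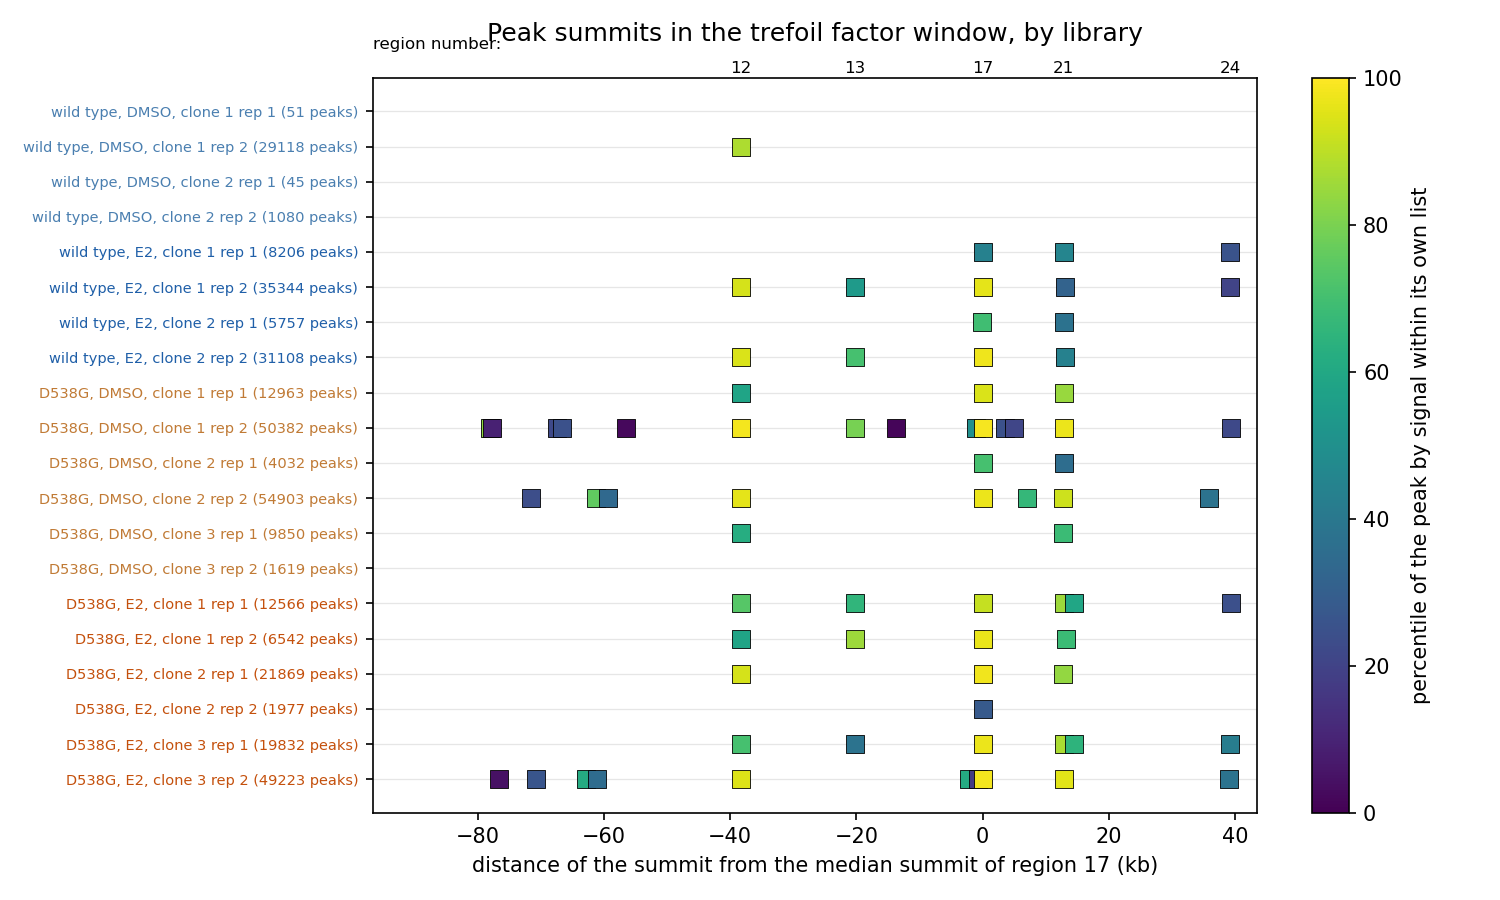
Each row is 1 library with its list length, each square a peak placed at the distance of its summit from the median summit of region 17 (kb), and the colour its percentile by signal within its own list. Columns of squares stand at regions 12, 17 and 21 in most lists with E2 and in most D538G lists with DMSO, while wild type with DMSO holds 1 square, at region 12.

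Region 17 was the region most often strongest in the window. It held the highest-ranked window peak in 13 of the 16 lists that had any, with region 21 highest in 2 (wild-type clone 1 E2 replicate 1 and D538G clone 3 DMSO replicate 1) and region 12 in 1. The region had a peak in 4 of 4 wild-type E2 lists, 0 of 4 wild-type DMSO lists, 6 of 6 D538G E2 lists (5 of 5 without the list whose names hold Ctl) and 4 of 6 D538G DMSO lists. The 4 DMSO lists were those of clones 1 and 2. The D538G DMSO lists without it were clone 3 replicate 1, with 9850 peaks, and clone 3 replicate 2, with 1619. It was absent from the wild-type clone 1 DMSO replicate 2 list although that list had 29118 peaks, and present in the D538G clone 2 E2 replicate 2 list of 1977. No other region of the genome had the same pattern of presence over the 20 lists. How many regions of the genome have a pattern found only once was not examined.

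The percentile of a peak is its standing by the authors' signal value within its own list, where 100 is the strongest. Lists of different length are not comparable in this measure, so it is given as a description. In wild type with E2 the region 17 peak stood at percentile 43.5 and 96.0 in clone 1 replicates 1 and 2, and at 69.4 and 97.6 in clone 2. In D538G with E2 it stood at 91.2 and 96.8 in clone 1, 98.0 and 27.9 in clone 2, and 97.0 and 98.1 in clone 3. Among the D538G DMSO lists it stood at 94.4 and 98.5 in clone 1 and at 70.5 and 97.0 in clone 2. The ranges of the 3 groups overlap, and the lowest value belongs to the shortest D538G E2 list.

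Region 21 showed the same presence in wild type, with 4 of 4 E2 and 0 of 4 DMSO lists, and had a peak in 5 of 6 D538G lists under each treatment (4 of 5 with E2 without the list whose names hold Ctl). The 2 D538G lists without it were clone 2 E2 replicate 2 and clone 3 DMSO replicate 2, with 1977 and 1619 peaks. Of the 14 lists with at least 5000 peaks, 13 held region 21, and the wild-type clone 1 DMSO replicate 2 list was the exception. With E2 its percentiles were 45.6 and 31.5 in wild-type clone 1 and 37.8 and 43.4 in wild-type clone 2. They were 85.4 and 68.0 in D538G clone 1, 83.8 in clone 2 replicate 1, and 87.3 and 95.5 in clone 3. The 4 wild-type values all lay below the 5 D538G values. Leaving out the list whose names hold Ctl, at 83.8, cannot change that. Of the 2478 regions of the genome with a peak in all 4 wild-type E2 and at least 5 D538G E2 lists, 5.25% had D538G percentiles wholly above those of wild type. This comparison was chosen after its values were seen and has no test. With DMSO the D538G percentiles were 84.4 and 96.9 in clone 1, 35.5 and 92.5 in clone 2 and 68.1 in clone 3 replicate 1, and so reached into the wild-type E2 range.

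**Figure D2:**
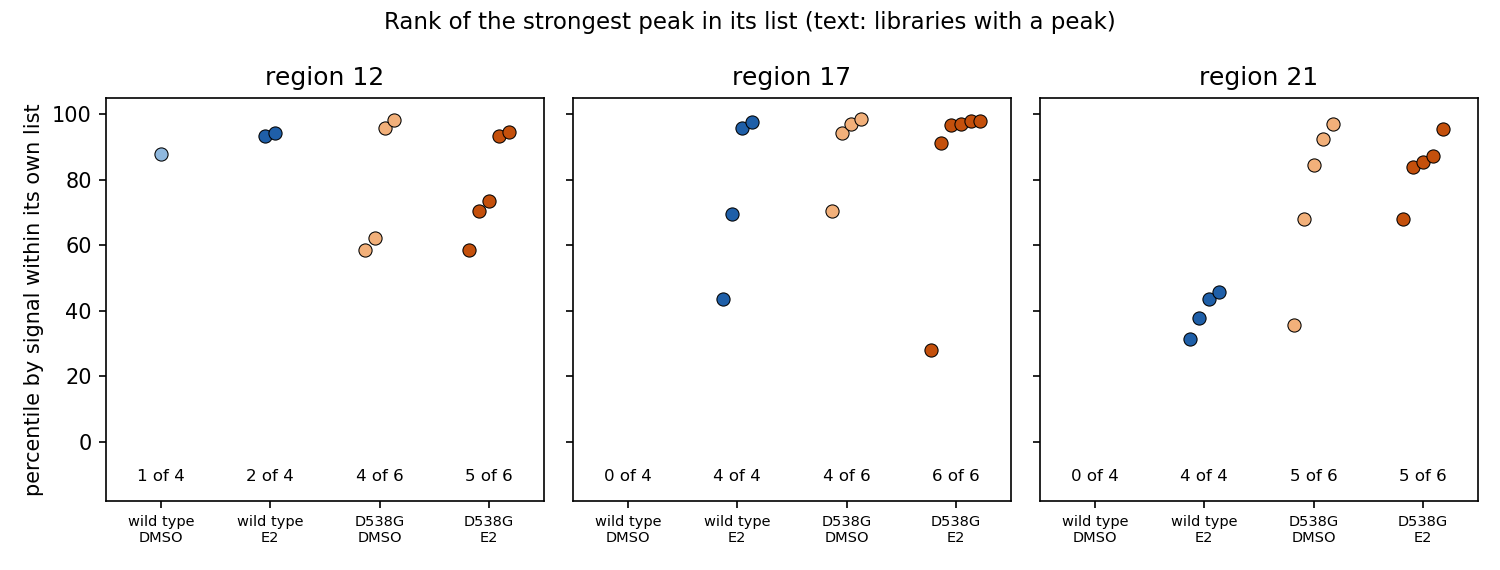
Each point is the strongest peak of 1 library in the region, placed at its percentile by signal within its own list, and the text under the points gives the libraries with a peak of those in the group. At region 21 the wild-type E2 points lie from 31.5 to 45.6 and the D538G E2 points from 68.0 to 95.5.

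Region 12 was the only region of the window with a peak in a wild-type DMSO list. There it was in clone 1 replicate 2 (percentile 87.9 of 29118 peaks) and in none of the 3 shorter lists. In wild type with E2 it was present in replicate 2 of both clones, at percentile 93.5 and 94.2, and absent from replicate 1 of both, whose lists were shorter (8206 and 5757 peaks). D538G lists held it in 4 of 6 with DMSO, at percentile 58.5 to 98.4, and in 5 of 6 with E2, at percentile 58.4 to 94.6. Without the list whose names hold Ctl it was in 4 of 5 with E2. Region 12 was in 12 of the 14 lists with at least 5000 peaks and in 0 of the 6 shorter ones, where region 17 was in 12 and 2 and region 21 in 13 and 1. Its shortest list had 6542 peaks, and the list of 8206 lacked it. The part of list length was not tested.

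The signal values of peaks within 1 list can be set against each other. Region 17 was stronger than region 12 in 10 of the 10 lists that held both, and stronger than region 21 in 12 of 13. The ratio of region 21 to region 17 ran from 0.128 to 1.03 in wild type with E2 (n = 4), from 0.543 to 0.807 in D538G with DMSO (n = 4) and from 0.262 to 0.741 in D538G with E2 (n = 5), so the groups overlapped. The list whose names hold Ctl was at 0.315, inside the last range. Region 21 against region 12 could be compared in only 2 wild-type lists, where the ratio was 0.165 and 0.242. In D538G it ran from 0.817 to 1.63 with DMSO (n = 4) and from 0.553 to 1.79 with E2 (n = 5). The value of 0.553 is that of the list whose names hold Ctl, and the other 4 ran from 1.17 to 1.79. How often other pairs of regions in the genome differ likewise was not examined, so with 2 wild-type lists nothing is read from these ranges. The exception to the order of regions 17 and 21 was wild-type clone 1 E2 replicate 1, at a ratio of 1.03. What the signal is relative to is not stated by the authors, and both wild-type lists with regions 12 and 21 were of replicate 2.

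**Figure D3:**
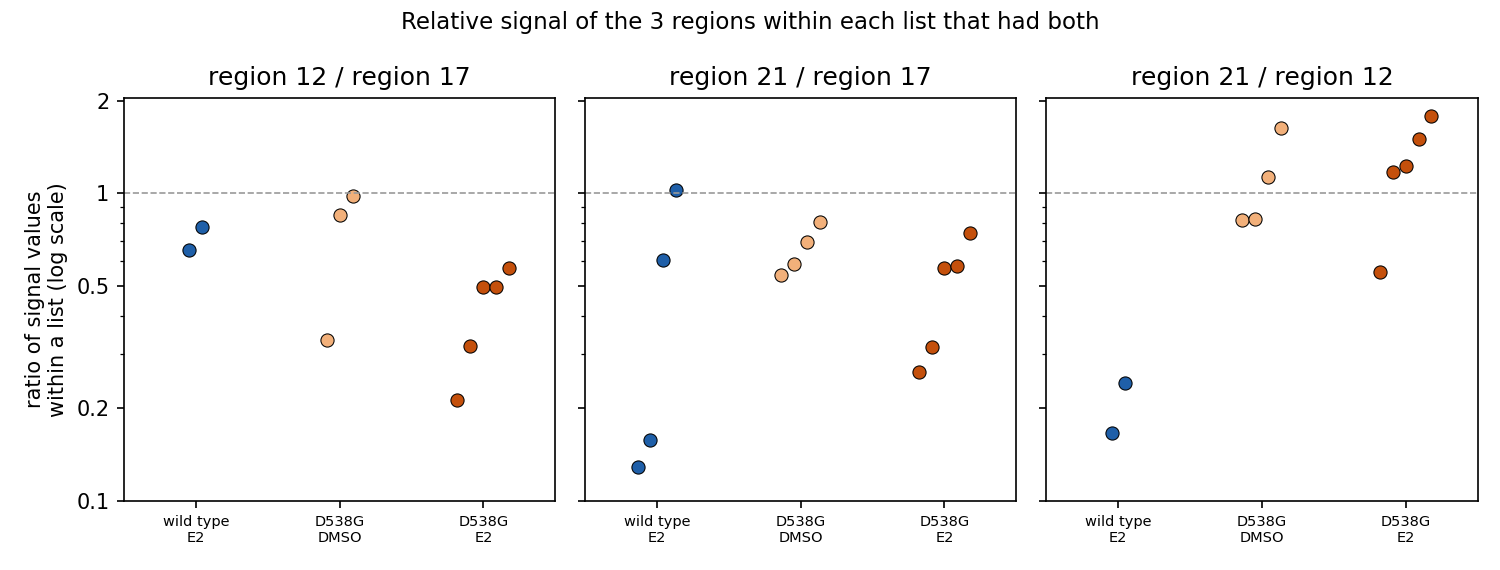
Each point is 1 list that held both regions, placed at the ratio of their signal values (log scale), and the dashed line marks equal signal. For region 21 against region 12 the 2 wild-type points are at 0.165 and 0.242 and the D538G points run from 0.553 to 1.79.

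Summits showed how closely the libraries placed each site. The region 17 summits of 14 lists lay within 55 bp, from 43796589 to 43796644, with an SD of 14.5 bp. Of the 6200 regions in the genome with a peak in at least 10 lists, 2.84% had an SD that small or smaller, and the median was 45.1 bp. Region 12 had an SD of 23.6 bp over 12 lists and a range of 92 bp, and 16.3% had an SD at or below that. Region 21 had summits spread more widely, from 43809410 to 43809750 with an SD of 112 bp, and 75.1% had an SD at or below that. Of its 14 summits, those of wild-type clone 1 E2 replicate 2 (43809711) and D538G clone 1 E2 replicate 2 (43809750) lay farthest from the rest, and that of wild-type clone 2 E2 replicate 2 was at 43809581. All 3 were E2 replicate 2 lists, and the other E2 replicate 2 list with a peak, of D538G clone 3, had its summit at 43809433. The next highest summit, 43809526, was of a DMSO list, D538G clone 1 replicate 1. This grouping was made after the summits were seen and was not tested.

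The summit of the region in most lists was compared between genotypes under E2. Regions 17 and 21 tied at 14 lists, and region 17, with the higher median percentile, was taken first. Its mean summit was 43796627 ± 13.6 bp (SD, n = 6) in D538G and 43796615 ± 19.0 bp (SD, n = 4) in wild type, a difference of 12.8 bp smaller than the spread over libraries (two-sided exact permutation p = 0.243). Without the list whose names hold Ctl it was 13.9 bp (exact permutation p = 0.294), and it was 4.33 bp without wild-type clone 2 E2 replicate 1. For region 21 the D538G mean had the lower coordinate, a difference of −40.3 bp for D538G minus wild type, with SDs of 142 bp (n = 5) and 134 bp (n = 4) and an exact permutation p of 0.619. That difference was −19.5 bp without the list whose names hold Ctl and ran from −103 to 16.9 bp when each list was left out in turn. The same comparison under DMSO could not be made, because region 17 had no peak in any wild-type DMSO list.

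**Figure D4:**
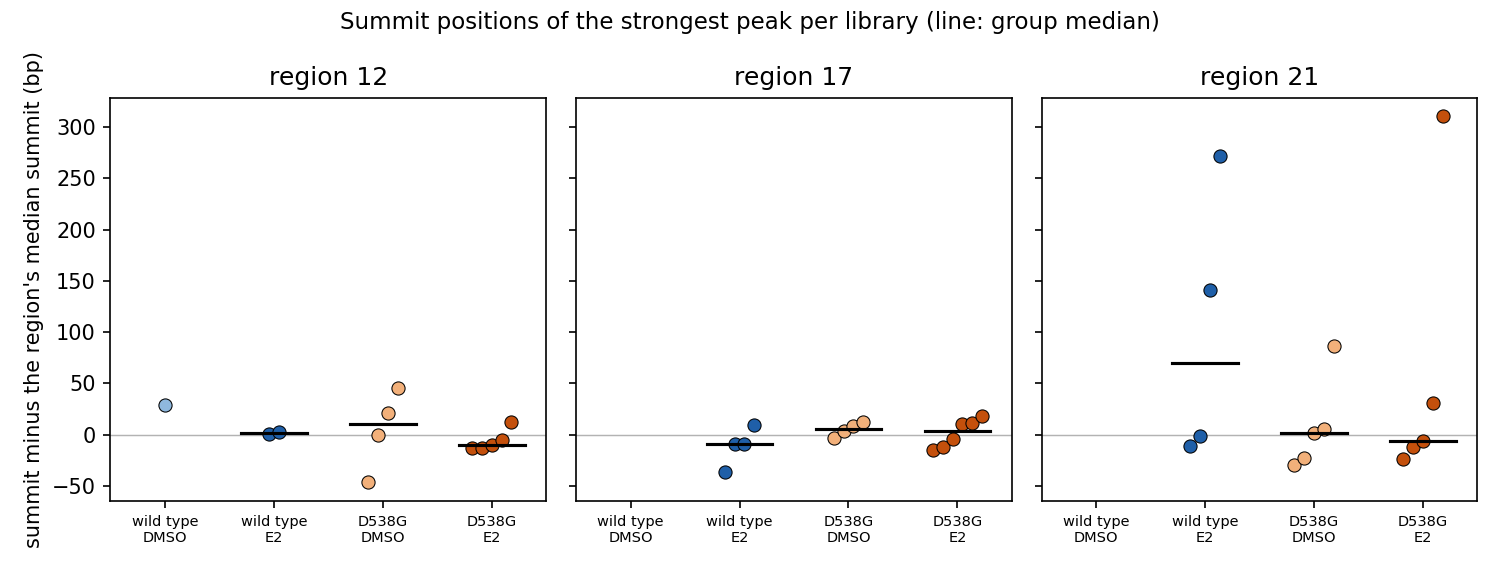
Each point is the summit of 1 library's strongest peak in the region, in bp from the median summit of all libraries, and black lines are group medians. Region 17 points lie within 55 bp of each other, and at region 21 E2 points of both genotypes reach up to 340 bp beyond the lowest summit.

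Among the regions with fewer peaks, region 13 (chr21:43776112-43776627) was in 6 lists: replicate 2 of both wild-type clones with E2, both D538G clone 1 E2 lists, D538G clone 3 E2 replicate 1, and D538G clone 1 DMSO replicate 2. None of the 4 lists of D538G clone 2 held it, of which the longest had 54903 peaks. Long lists of other clones also lacked it, those of D538G clone 3 E2 replicate 2 (49223 peaks) and wild-type clone 1 DMSO replicate 2 (29118 peaks). Region 13 percentiles ran from 38.1 to 85.3 and its summits lay within 57 bp. Region 24 (chr21:43834993-43836010), at the upper edge of the window, was also in 6 lists, 2 of wild type with E2, 3 of D538G with E2 and 1 of D538G with DMSO. It stood low in each, at percentile 20.1 to 41.9. Region 22 (chr21:43810879-43811212) was in the D538G E2 replicate 1 lists of clones 1 and 3, with summits 1 bp apart, and in no other list. Regions 9 and 16 were each in 2 D538G lists, both among the 3 longest.

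The question of the first comparison was whether E2 brought the receptor to the window in wild-type clones. The window held 0, 1, 0 and 0 bound regions in the wild-type DMSO lists (clone 1 replicates 1 and 2, clone 2 replicates 1 and 2) and 3, 5, 2 and 4 in the E2 lists of the same order. The E2 list had more in 4 of 4 pairs and the groups did not overlap. The means were 0.25 ± 0.5 and 3.5 ± 1.29 (SD, n = 4 each), a difference of 3.25 regions (two-sided exact permutation p = 0.0286, the smallest that 4 against 4 allow; adjusted p = 0.143 over the 5 tests of this number). It did not pass the adjusted threshold. The test took the lists as unpaired. An exact test that flipped the signs of the 4 paired differences gave p = 0.125, which 4 pairs cannot go below. The replicate 1 lists alone differed by 2.5 regions and the replicate 2 lists by 4, and 2 lists against 2 allow no exact p below 0.333. The DMSO lists were also shorter in each pair. From the 1000 strongest peaks per list the difference was 0.250. That cut does not equalise the DMSO lists of 45 and 51 peaks. It also removes sites by rank, since region 21 ranked no better than 3581.5 in wild type with E2. Per 10000 peaks of the list the difference was 2.37 window peaks (exact permutation p = 0.0286, adjusted p = 0.0952). The DMSO lists of 45, 51 and 1080 peaks held 0 window peaks and were so short that they would seldom hold any. The 1 long DMSO list, of 29118 peaks, held region 12 alone, against 5 regions in its E2 partner of 35344. That list was far longer than the others of its group, and nothing is read from 1 such library.

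Region by region, 5 of the 24 could be tested in wild type (a peak in at least 2 of the 8 lists), and regions 17 and 21 had a Fisher's exact p of 0.0286, both with 4 of 4 E2 and 0 of 4 DMSO lists. Over the genome 9.34% of the regions tested had an unadjusted p under 0.05, all in that direction, and 0% passed after adjustment over all regions (adjusted p = 0.306 for both). With the lists of 45 and 51 peaks left out, neither region could reach 0.05, since 4 lists against 2 allow no p below 0.0667. With the 1000 strongest peaks per list the count was 0.

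In D538G clones the E2 and DMSO lists overlapped. Regions with a peak numbered 3 and 14 in the DMSO lists of clone 1, 2 and 8 in clone 2, and 2 and 0 in clone 3 (replicates 1 and 2). The E2 lists of the same order held 6 and 4, 3 and 1, and 6 and 10. The E2 list had more in 4 of 6 pairs. The means were 4.83 ± 5.23 with DMSO and 5.00 ± 3.10 with E2 (SD, n = 6 each), a difference of 0.167 (exact permutation p = 1). It was 2.25 without the 3 longest lists (exact permutation p = 0.159) and 1.5 over regions in at least 2 lists (exact permutation p = 0.279). Per 10000 peaks of the list it was 1.44 window peaks (exact permutation p = 0.19). The difference in regions was 0.567 without the list whose names hold Ctl, and between −0.833 and 2.00 when each list was left out in turn. The replicate 1 lists alone gave 2.67 and the replicate 2 lists −2.33 (exact permutation p of 0.2 and 0.8). In both pairs where DMSO had more regions, the DMSO list was the longer (50382 peaks to 6542 for clone 1, and 54903 to 1977 for clone 2, both replicate 2). In clone 1 replicate 1 the E2 list was slightly the shorter (12566 peaks to 12963) and had more regions, 6 against 3, and in the other 3 pairs the E2 list was the longer and had more. In the pairs with more regions under DMSO, every region of the shorter list was also in the longer one, 4 of 4 and 1 of 1. Likewise, in the replicate 1 pairs of clones 1, 2 and 3 every DMSO region was also in the E2 list, 3 of 3, 2 of 2 and 2 of 2. How often regions elsewhere in the genome are shared within these pairs was not examined, so nothing is read from these counts. Of 8 window regions tested, 0 had an unadjusted Fisher's p under 0.05, the smallest being 0.455 for region 17, and over the genome the share was 0.02%.

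**Figure D5:**
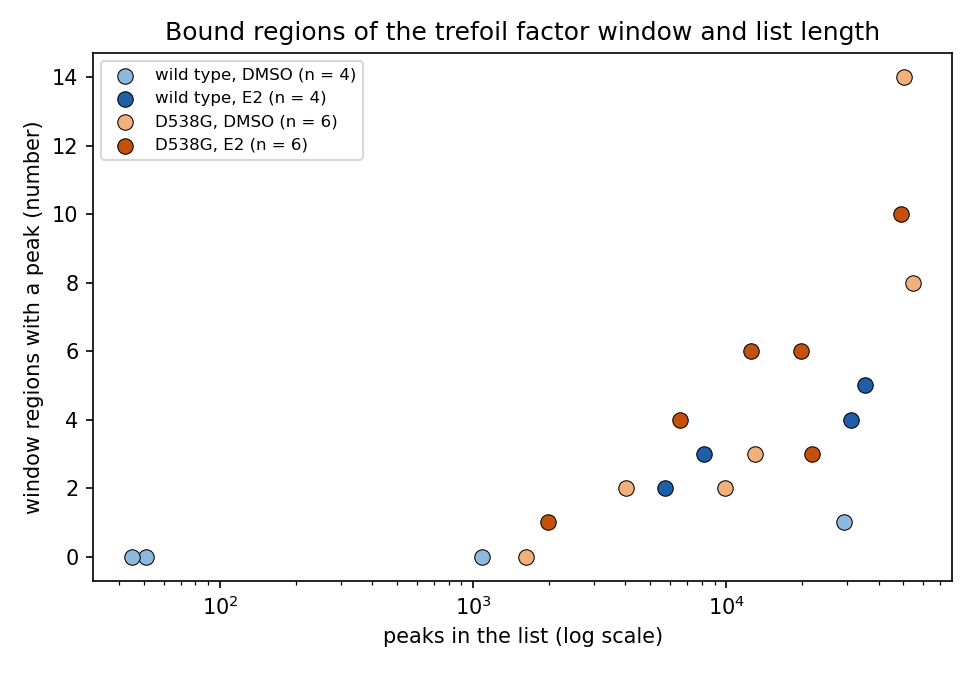
Each point is 1 library, placed at the number of peaks in its list (log scale) and the number of window regions with a peak. The 5 lists of 45 to 1977 peaks held at most 1 region, and among the longer ones the wild-type DMSO list of 29118 peaks holds 1 region, below the lists of like length.

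Binding without added estrogen was then compared between genotypes. The D538G DMSO lists held 0 to 14 window regions with a median of 2.5, and the wild-type DMSO lists 0 to 1. The means of 4.83 and 0.250 differed by 4.58 regions (n = 6 and 4), which did not pass (two-sided exact permutation p = 0.129; 0.321 when adjusted). The size of the difference leaned on long lists. It was 2.75 without D538G clone 1 DMSO replicate 2 (exact permutation p = 0.0635). Without the 3 longest lists it was 1.5 (exact permutation p = 0.143). Over regions in at least 2 lists it was 2.58 (exact permutation p = 0.0429, adjusted p = 0.107). None of these passed when adjusted. Per 10000 peaks of the list, D538G had 2.29 ± 1.65 window peaks (SD, n = 6) and wild type 0.0859 ± 0.172 (SD, n = 4), with an exact permutation p of 0.0381 and an adjusted p of 0.0952. The wild-type lists of 45, 51 and 1080 peaks held 0 window peaks, and at the D538G rate lists so short would seldom hold any. The wild-type rate therefore rests on the list of 29118 peaks, and this comparison cannot separate genotype from list length. The replicate 1 lists alone gave a difference of 2.33 regions and the replicate 2 lists alone 6.83 (exact permutation p of 0.1 and 0.4).

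By region, 3 could be tested under DMSO and each had peaks in a larger share of D538G lists. Region 21 was in 5 of 6 D538G and 0 of 4 wild-type lists (Fisher's exact p = 0.0476, adjusted p = 1). Region 17 was in 4 of 6 and 0 of 4 (exact p = 0.0762), and region 12 in 4 of 6 and 1 of 4 (exact p = 0.524). Over the genome 3.57% of the regions tested had an unadjusted p under 0.05 and 0% an adjusted one. The number of window regions under 0.05 rose from 1 to 2, with region 17 added, when either DMSO list of D538G clone 3 was left out. It fell to 0 without the 3 longest lists, without the lists of under 500 peaks, and with the 1000 strongest peaks per list.

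With E2 in both genotypes, D538G lists held 1 to 10 window regions and wild-type lists 2 to 5, with means of 5.00 ± 3.10 (SD, n = 6) and 3.5 ± 1.29 (SD, n = 4). The difference of 1.5 was smaller than the SD of the D538G lists (exact permutation p = 0.438; 0.548 when adjusted). It was 1.90 without the list whose names hold Ctl and 0.5 without the 3 longest lists. By replicate number it was 2.5 for 1 and 0.5 for 2 (exact permutation p of 0.3 and 1). Of 6 window regions tested 0 had an unadjusted Fisher's p under 0.05, against 1.21% over the genome. The effect of E2 within pairs was 3.25 ± 0.957 regions in wild type (SD, n = 4 pairs) and 0.167 ± 7.41 in D538G (SD, n = 6 pairs), and the difference of −3.08 was within the spread between pairs (exact permutation p = 0.424, adjusted p = 0.548). It was −3.25 without the list whose names hold Ctl, −1.05 without the D538G clone 1 replicate 2 pair and −5.05 without the D538G clone 3 replicate 2 pair. Without the 3 longest lists it was −0.583, and per 10000 peaks −0.932 window peaks. In replicate 1 pairs the difference in regions was 0.167 and in replicate 2 pairs −6.33 (exact permutation p of 1 and 0.4).

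No region of the window was bound in wild-type lists alone (3.78% in the genome), and 19 of the 24 (79.2%, against 56.3% in the genome) were in D538G lists alone. Of those 19, 16 were in 1 list each. The series has 12 D538G and 8 wild-type lists, and the 3 longest lists are of D538G clones, so the share cannot be told apart from list length. All 5 regions seen in wild type, regions 12, 13, 17, 21 and 24, were also in D538G lists under both treatments.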

How the data were processed

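Peaks were called per library, and the submitters' processing notes name Bowtie, MACS2 and DESeq2 without roles or versions and the build hg19. The threshold, the control library and the read depth are not given in the sources used here, though every deposited −log10 p was above 10. The authors' peak names hold the word Input in 4 of the 20 lists. Each deposited list also gives a signal value per peak, used here only within its list. The 2 input libraries were not used here.

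From these lists, 5 peaks of 356472, on the mitochondrial sequence, were set aside. Positions were made 1-based, and the summit is the start plus the offset. Merging at 1 bp overlap gave the same regions as bedtools 2.31.1. Where a list had several peaks in a region the strongest was used. Presence was compared by Fisher's exact test, two-sided, over all regions of the genome seen in 2 or more of the lists compared, with Benjamini-Hochberg adjustment, after it was tested on simulated data. Numbers of regions and summits were compared by exact two-sided permutation tests in Python 3.11.15 (scipy 1.17.1).

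All window regions were counted, and those described by library have a peak in at least 10 lists or an unadjusted p under 0.05. The lists that held regions 9, 13, 16, 22 and 24 were named outside that rule, after their values were seen. Pairs of E2 and DMSO lists come from the same clone and replicate number. The members and tests were chosen with earlier results of these data known. No sequence is printed and a planned motif search was not run.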

Additional observations from a re-analysis of the deposited data

Results flagged for a closer look

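In 24 groups of 4 to 6 libraries, the number of window regions, the window peaks per 10000, and the percentile and summit of regions 12, 17 and 21 were searched for single libraries that lay well outside the others. The cut-offs mark about 1 group in 20 by chance where values spread normally, which tied counts and percentiles need not do. They marked 5 values, and that number cannot be set against chance. Wild-type clone 1 DMSO replicate 2 was the only list of its group with a window peak, with 1 region and 0.343 window peaks per 10000. Both values come from the same peak, and any peak would be marked where every other list of the group has 0. D538G clone 2 DMSO replicate 1 had the region 17 peak at percentile 70.5, below the other D538G DMSO lists, and D538G clone 2 E2 replicate 2 had it at percentile 27.9, below the other D538G E2 lists. These were the shortest lists with that region in their groups, with 4032 and 1977 peaks, and the part of list length was not tested. D538G clone 1 E2 replicate 2 had its region 21 summit at 43809750, beyond the other D538G E2 lists.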

How the results depend on the processing

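Of 202 alternatives to 11 results, 195 kept their side of the threshold or their count within 1.5 times. The number of window regions under an unadjusted p of 0.05 moved in the other 7. For E2 against DMSO in wild type it was 0 with the 1000 strongest peaks per list and 0 without lists of under 500 peaks, where 4 lists against 2 cannot pass. For D538G against wild type under DMSO it was 0 under those alternatives and without the 3 longest lists, and 1 to 2 across the fits that left out 1 library each. The cause was not tested. Many kept results had not passed the threshold, so this shows little about stability. With the replicate block the paired wild-type difference of 3.25 regions gave p = 0.125 by the exact test, which 4 pairs cannot go below. The block changed no call. The summit comparison under DMSO was not run, since wild type had no peak there. Counting only regions in at least 2 lists, leaving out the 3 longest lists or the D538G clone 2 replicate 1 pair, and the region 21 summit test were chosen after the data were seen.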
